A study of Homo sapiens with 12 samples.

Results

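The kinases that carry the mitogen-activated protein (MAP) kinase cascades, together with the STE20-like kinases that act above or beside them, were examined among the RNAs captured with 2 biotinylated microRNAs. The members were taken by gene symbol from the array's platform annotation: MAPK, MAP2K, MAP3K and MAP4K genes, and symbols that begin with TAOK, with STK and a digit, or with PAK and a digit, leaving out MAP3K11 and PAK1IP1. This gave 48 of the 9647 genes and 62 of the 15329 probes in the deposited table. Symbols rather than sequence set the membership, so it also took in STK11IP, which encodes a protein that binds the kinase LKB1, and PAK6-AS1, an RNA annotated as antisense to PAK6. Several STK genes it took in (STK11, STK17B, STK33, STK35, STK36, STK38, STK38L and STK40) lie outside the STE20-like family. Other kinases of the cascades, such as MAPK14 and PAK1, are not analysed here.

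HEK293T cells, a human embryonic kidney line that carries the SV40 large T antigen, received 200 pmol of a synthetic biotin-labelled duplex of miR-199a-5p or of miR-424-3p and were harvested after 24 h. Streptavidin beads captured the duplex with its bound RNA, and the captured RNA (pull-down) and the RNA of cells given the same duplex (input) were measured on Illumina HT-12 arrays. Each of the 4 groups had 3 arrays, and no group of cells without a duplex is analysed here, so both inputs also carried an introduced microRNA. RNA held by the beads without the duplex, which the paper names as a possible source of false positives, was therefore not tested. The labels number the replicates without saying whether they came from separate cultures, so the p-values measure the spread between these arrays.

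In a MAP kinase cascade a MAP3K phosphorylates a MAP2K, which phosphorylates a MAPK, and MAP4K, TAOK and PAK kinases relay signals from receptors and small GTPases to the MAP3K level. The ERK branch is known for growth factor responses, and the JNK and p38 branches for responses to stress and cytokines. STE20-like kinases outside these cascades include MST1 and MST2 (STK4 and STK3), which head the Hippo pathway. A microRNA guides Argonaute to transcripts mainly through its seed, the bases near its 5′ end, and a biotin pull-down enriches the RNAs held by the introduced duplex.

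The mature sequences of the 2 microRNAs are shown because the pull-downs were made with these duplexes. They are written 5′ to 3′ with the seed, bases 2 to 8, in capitals, as RefSeq gives them on GRCh38.p14.
hsa-miR-199a-5p: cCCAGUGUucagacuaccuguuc
hsa-miR-424-3p: cAAAACGUgaggcgcugcuau
The miR-199a-5p sequence, 23 bases long, is encoded by MIR199A1 at chr19:10817469-10817491 and by MIR199A2 at chr1:172144592-172144614, and the 21 bases of miR-424-3p by MIR424 at chrX:134546644-134546664, all on the minus strand. The seeds CCAGUGU and AAAACGU differ, and a transcript would pair with them through ACACUGG and ACGUUUU. Whether the members' transcripts hold such sites was not examined.

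Array values were log2 signals. The array medians lay between 9.15 and 9.21, arrays of one group correlated at r = 0.983 to 0.994 across probes, and 3 arrays per group limit the precision of every value below. Each gene was represented by its brightest probe, and an enrichment is the pull-down minus the input on the log2 scale, relative to the other probes of the array. The members covered most of the measured range: their means over the 12 arrays ran from 7.79 for MAPK11 to 12.47 for STK24. In the inputs alone the median level of the members was 9.58, beside 9.38 for all genes. The labelled cell line was checked on 5 of 6 markers: KRT8, KRT18, VIM, NEFL and NEFM were measured, with a summed linear level of 15819 to 18236 over all inputs. For the miR-424-3p pull-downs that sum, most of it VIM, was 18300 to 19824, and 2 of 5 markers were lower, NEFL at -0.40 ± 0.09 (± SE) and NEFM at -0.55 ± 0.17. For the miR-199a-5p ones it was 6403 to 8270, where 4 of 5 were lower, with VIM at -1.37 ± 0.12. Among fibroblast markers COL1A1 alone was measured, at a mean of 7.89, and the blood markers are not analysed here. The part of these marker levels in the members' results was not tested.

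Which of these kinase RNAs came down with each microRNA was asked by comparing pull-down with input in limma, one-sided in each direction, with adjusted p-values over all probes and a threshold of 0.05. With miR-199a-5p, 15 of 48 members were higher in the pull-down (31.2%), against 29.9% of all genes, and 5 were lower (10.4%), against 20.1% of all genes. The median enrichment of the members was 0.17, beside 0.06 for all genes. With miR-424-3p, 12 members were higher (25%) and 8 lower (16.7%), against 30.3% and 25.7% of all genes, with a median of 0.11 beside 0.03. The shares of higher members thus lay near the background of all genes in both pull-downs, and 28 members passed in neither direction in each. The count of 5 lower members was 2 without input replicate 2 or without pull-down replicate 1 of miR-199a-5p and 3 without its pull-down replicate 3, and the count of 8 was 5 without input replicate 2 and 4 without input replicate 3 of miR-424-3p.

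**Figure D1:**
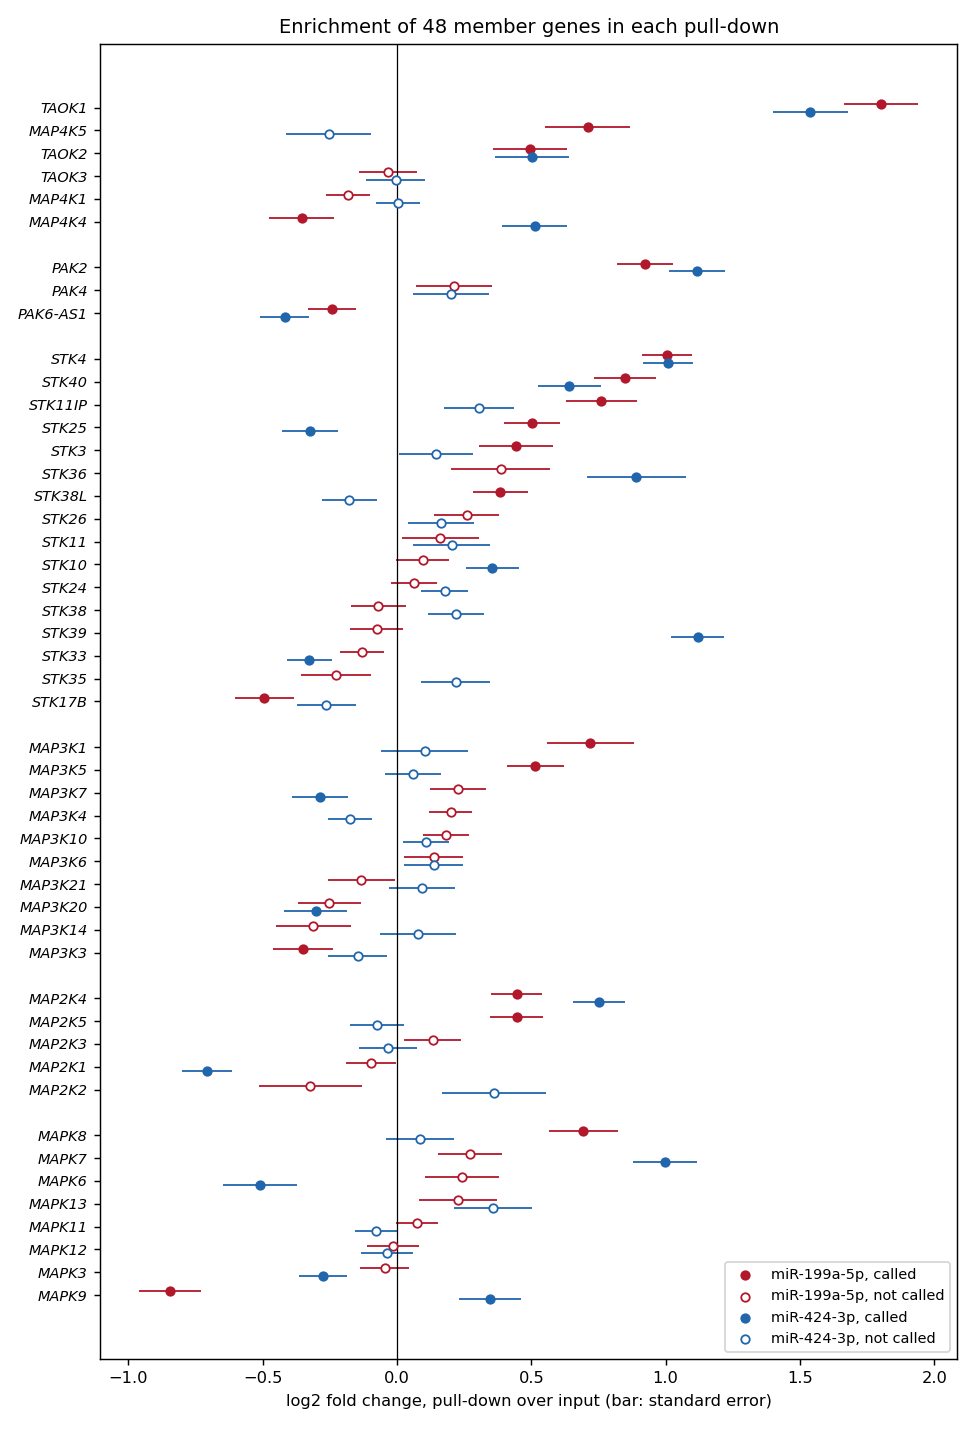
Log2 fold change of pull-down over input for each of the 48 members, on the x axis, with genes grouped by family on the y axis. Red stands for miR-199a-5p and blue for miR-424-3p, filled points passed the limma threshold and bars are standard errors; TAOK1 stands farthest to the right with both microRNAs, at 1.80 and 1.54.

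Brighter members were called more often. Among the 31 with a mean of at least 9, miR-199a-5p gave 11 higher and 3 lower, beside 34.8% and 22.4% of all such genes. There miR-424-3p gave 11 and 6, beside 34.7% and 29.7%. Among the 17 dimmer ones, miR-199a-5p gave 4 and 2, beside 22.7% and 16.7% of all dimmer genes, and miR-424-3p gave 1 and 2, beside 23.8% and 19.7%. All genes were likewise called more often at 9 or above. The normalization used for these values compresses differences at low signal, and its part in these counts was not tested.

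A set of 6 members was higher in both pull-downs, 12.5% of the 48 beside 14.1% of all genes: TAOK1, STK4, PAK2, STK40, MAP2K4 and TAOK2. TAOK1, a STE20-like kinase that activates the p38 branch, had the largest enrichment of all members with each microRNA. Its log2 signal was 8.76, 8.75 and 8.39 in the miR-199a-5p inputs and 10.5, 10.3 and 10.5 in the pull-downs. With miR-424-3p it was 8.98, 8.64 and 8.94 in the inputs and 10.32, 10.2 and 10.66 in the pull-downs. Every pull-down array lay more than 1 log2 unit above every input array. The enrichment was 1.80 ± 0.14 for miR-199a-5p (± SE, 3.49-fold, adjusted p = 7.42e-07 in limma), rank 14 of 9647 genes, and 1.54 ± 0.14 with miR-424-3p (2.91-fold, adjusted p = 5.59e-07), rank 118.

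STK4, the Hippo kinase MST1, was among the brightest members and rose by nearly the same amount with both microRNAs. It read 11.4, 11.52 and 11.36 in the inputs and 12.48, 12.29 and 12.53 in the pull-downs of miR-199a-5p. With miR-424-3p it read 11.42, 11.58 and 11.65 in the inputs and 12.54, 12.6 and 12.53 in the pull-downs. The pull-down arrays stood clear of the inputs in both experiments, and the enrichments were 1.01 ± 0.09 in each (adjusted p = 2.57e-06 and 7.03e-07 in limma). PAK2, the widely expressed kinase activated by small GTPases, read 9.65, 9.85 and 9.69 in the miR-199a-5p inputs and 10.59, 10.76 and 10.62 in the pull-downs. Its miR-424-3p values were 9.69, 9.89 and 9.64 in the inputs and 10.71, 11.02 and 10.85 in the pull-downs. Again no pull-down array overlapped the inputs, with enrichments of 0.92 ± 0.10 and 1.12 ± 0.10 (adjusted p = 1.25e-05 and 7.77e-07).

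STK40, a kinase-like protein whose activity as a kinase is uncertain, read 11.07, 10.91 and 10.83 in the miR-199a-5p inputs and 11.68, 11.83 and 11.86 in the pull-downs. With miR-424-3p the inputs were more spread, at 11.37, 10.86 and 11.11, and the pull-downs read 11.78, 11.75 and 11.74. The groups did not overlap, and the enrichments were 0.85 ± 0.12 and 0.64 ± 0.12 (adjusted p = 4.86e-05 and 0.000314 in limma). MAP2K4, or MKK4, activates JNK and p38. It read 10.37, 10.2 and 10.08 in the inputs and 10.79, 10.62 and 10.58 in the pull-downs of miR-199a-5p, and 10.28, 10.11 and 10.13 against 10.9, 10.94 and 10.95 with miR-424-3p. All pull-downs were above all inputs, by 0.45 ± 0.10 and 0.75 ± 0.10 (adjusted p = 0.00155 and 1.41e-05). TAOK2, a close relative of TAOK1, rose by 0.50 ± 0.14 with each (adjusted p = 0.00782 and 0.00662). The difference between the 2 enrichments did not pass for any of these 6 genes, with values between -0.31 ± 0.14 for MAP2K4 and 0.26 ± 0.20 for TAOK1.

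**Figure D2:**
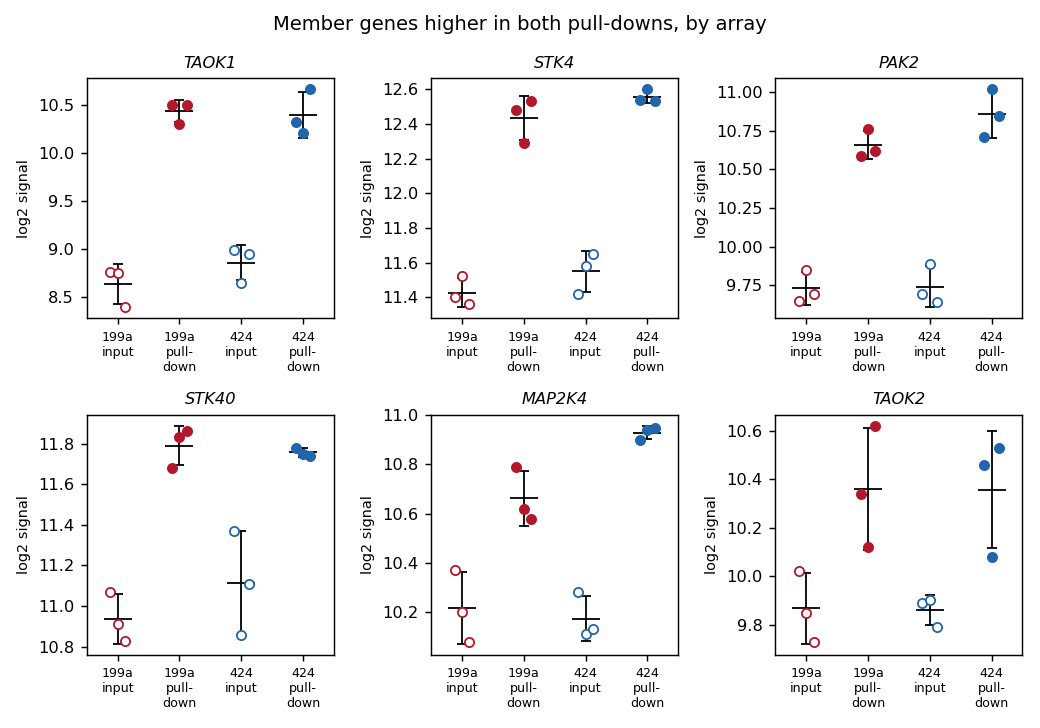
Log2 signal of the 6 members that were higher in both pull-downs, 1 panel per gene, with open points for input arrays, filled points for pull-down arrays, and lines for the group mean and SD (n = 3). The pull-down arrays lie above the input arrays in every panel; for TAOK1 the inputs read 8.39 to 8.98 and the pull-downs 10.2 to 10.66.

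By the brightest probe of each gene, only PAK6-AS1 was lower in both pull-downs, 2.08% of the members beside 11.5% of all genes. It was one of the dimmest members, with 8.03, 7.92 and 7.95 in the miR-199a-5p inputs and 7.64, 7.78 and 7.75 in the pull-downs. The miR-424-3p inputs read 8.29, 8.05 and 8 and the pull-downs 7.7, 7.72 and 7.67. The groups did not overlap, although all values lay near the lowest signals of the table. It fell by 0.24 ± 0.09 with miR-199a-5p (adjusted p = 0.0368 in limma) and by 0.42 ± 0.09 with miR-424-3p (adjusted p = 0.00125). The miR-199a-5p call was lost without any 1 of 5 arrays, namely its input replicates 1 to 3 and pull-down replicates 1 and 3, with values from -0.26 to -0.20 and adjusted p from 0.0502 to 0.122.

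Opposite calls by the brightest probe were rare. STK25 rose in the miR-199a-5p pull-down and fell in the other (2.08% of the members beside 3.3% of all genes), and MAPK9 and MAP4K4 the reverse (4.17% beside 2.76%). STK25 is a kinase of the Golgi and of the STRIPAK phosphatase complex. Its miR-199a-5p values were 10.66, 10.61 and 10.41 in the inputs and 10.99, 11.2 and 11 in the pull-downs. Its miR-424-3p values were 10.84, 10.61 and 10.92 in the inputs and 10.43, 10.52 and 10.44 in the pull-downs. Neither pair of groups overlapped, and the pull-downs of the 2 microRNAs lay on opposite sides of their inputs. The enrichments were 0.50 ± 0.10 (adjusted p = 0.00115 in limma) and -0.33 ± 0.10 (adjusted p = 0.015), the latter -0.26 with an adjusted p of 0.0722 without input replicate 3 of miR-424-3p.

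MAPK9 encodes JNK2, and its RNA gave the largest fall of any member with miR-199a-5p. The 3 inputs read 10.62, 10.56 and 10.62 and the pull-downs 9.84, 9.93 and 9.5. With miR-424-3p the inputs read 10.44, 10.4 and 10.39 and the pull-downs 10.68, 10.96 and 10.62. The pull-downs were below every input with the first microRNA and above every input with the second. The enrichments were -0.84 ± 0.12 (adjusted p = 3.02e-05 in limma) and 0.35 ± 0.12 (adjusted p = 0.0198). The rise with miR-424-3p was 0.34 without its input replicate 2 or 3 (adjusted p = 0.0509 and 0.0541) and 0.24 without its pull-down replicate 2 (adjusted p = 0.106).

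MAP4K4, a STE20-like kinase known for its signalling to JNK, followed MAPK9 in direction. It read 9.39, 9.55 and 9.75 in the inputs and 9.11, 9.25 and 9.26 in the pull-downs of miR-199a-5p. With miR-424-3p it read 9.09, 9.44 and 9.37 in the inputs and 9.64, 9.82 and 9.97 in the pull-downs. The groups did not overlap with either microRNA. The enrichments were -0.35 ± 0.12 (adjusted p = 0.0237 in limma) and 0.51 ± 0.12 (adjusted p = 0.00247). The fall with miR-199a-5p was -0.36 without its input replicate 2, -0.26 without input replicate 3 and -0.31 without pull-down replicate 1, with adjusted p of 0.0534, 0.111 and 0.0811.

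Among the other MAP4K and TAOK genes, MAP4K5 rose with miR-199a-5p alone. Its inputs read 9.37, 9.93 and 9.64 and its pull-downs 10.66, 10.29 and 10.12, an enrichment of 0.71 ± 0.16 (adjusted p = 0.002 in limma). With miR-424-3p the inputs read 9.24, 9.58 and 9.65 and the pull-downs 9.19, 9.14 and 9.38, a difference of -0.25 ± 0.16 that did not pass. The dimmer MAP4K5 probe gave another result, described with the pairs of probes. TAOK3 and MAP4K1, a kinase known from blood cells, passed with neither microRNA, at -0.03 ± 0.11 and -0.18 ± 0.08 with miR-199a-5p and near 0 with miR-424-3p. PAK4, which belongs to the second PAK subgroup, had a brighter probe at 0.21 ± 0.14 and 0.20 ± 0.14, neither of which passed.

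The 16 STK genes had the same median enrichment, 0.21, for miR-199a-5p and for miR-424-3p, beside 0.06 and 0.03 for all genes. With miR-199a-5p 6 were higher (37.5%) and 1 lower (6.25%), beside 29.9% and 20.1% of all genes. With miR-424-3p 5 were higher (31.2%) and 2 lower (12.5%), beside 30.3% and 25.7%. STK39, or SPAK, a kinase that regulates chloride cotransporters, separated the microRNAs most clearly. Its miR-424-3p inputs read 9.62, 9.56 and 9.68 and its pull-downs 10.76, 10.65 and 10.8. Its miR-199a-5p arrays overlapped, with 9.86, 10.06 and 9.73 in the inputs and 9.94, 9.73 and 9.75 in the pull-downs. STK39 thus rose by 1.12 ± 0.10 with miR-424-3p (2.17-fold, adjusted p = 4.71e-07 in limma), and its value with miR-199a-5p was -0.08 ± 0.10 (adjusted p = 0.558).

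STK36, the human relative of the Drosophila kinase Fused, read 10.19, 10.35 and 10.32 in the miR-424-3p inputs and 11.16, 11.04 and 11.33 in the pull-downs. With miR-199a-5p its inputs read 10.3, 9.99 and 9.92 and its pull-downs 11, 10.3 and 10.06, with replicate 1 well above the other pull-downs. It rose by 0.89 ± 0.18 with miR-424-3p (adjusted p = 0.000934 in limma). Its 0.39 ± 0.18 with miR-199a-5p did not pass (adjusted p = 0.0946) but was 0.58 without pull-down replicate 3 of that microRNA (adjusted p = 0.0131). Its difference, miR-199a-5p minus miR-424-3p, was -0.51 ± 0.26 and did not pass (adjusted p = 0.152). Without pull-down replicate 1 of miR-199a-5p that difference was -0.78 and was called lower (adjusted p = 0.00385). STK11IP showed the reverse order of sizes, with 8.28, 8.08 and 8.18 in the miR-199a-5p inputs and 9.31, 8.8 and 8.71 in the pull-downs, a rise of 0.76 ± 0.13 (adjusted p = 0.000295). Its miR-424-3p enrichment was 0.30 ± 0.13 (adjusted p = 0.0654). LKB1 itself, encoded by STK11, was at 0.16 ± 0.14 and 0.20 ± 0.14 and passed with neither.

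STK3, the second Hippo kinase, rose less than STK4, by 0.44 ± 0.14 with miR-199a-5p (adjusted p = 0.0148 in limma) and with a value of 0.15 ± 0.14 for miR-424-3p that did not pass. Its call was lost without miR-199a-5p input replicate 2 (0.35, adjusted p = 0.0759) or pull-down replicate 1 (0.27, adjusted p = 0.077). STK38L, the NDR2 kinase, rose by 0.39 ± 0.10 with miR-199a-5p, and its paralog STK38 passed with neither microRNA. STK10, which phosphorylates proteins that link the membrane to actin, rose by 0.35 ± 0.10 with miR-424-3p (adjusted p = 0.00739). STK24 and STK26, related to STK25 and like it found in STRIPAK complexes, and STK35 passed with neither, with enrichments from -0.23 for STK35 to 0.26 for STK26.

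Besides STK25, the STK genes that fell had low signals. STK17B, a kinase of the death-associated family, read 8.24, 8.7 and 8.36 in the miR-199a-5p inputs and 7.83, 8.04 and 7.95 in the pull-downs. It fell by 0.49 ± 0.11 (adjusted p = 0.00176 in limma), and its -0.26 ± 0.11 with miR-424-3p did not pass (adjusted p = 0.0524). STK33 read 8.17, 8.03 and 8.17 in the miR-424-3p inputs and 7.86, 7.75 and 7.78 in the pull-downs. It fell by 0.33 ± 0.08 (adjusted p = 0.0039), with pull-downs below all inputs.

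At the MAP3K level 2 of 10 genes rose and 1 fell with miR-199a-5p, beside 29.9% and 20.1% of all genes. With miR-424-3p 0 rose and 2 fell, beside 30.3% and 25.7%, and the counts of the 2 microRNAs were not tested against each other. MAP3K1, or MEKK1, a kinase that also carries ubiquitin ligase activity, read 9.33, 9.77 and 9.89 in the miR-199a-5p inputs and 10.51, 10.52 and 10.11 in the pull-downs, a rise of 0.72 ± 0.16 (adjusted p = 0.00193 in limma). In the miR-424-3p arrays it read 9.33, 9.66 and 9.66 and then 9.6, 9.48 and 9.88, with overlap and a value of 0.10 ± 0.16. MAP3K5, the stress kinase ASK1, rose by 0.52 ± 0.10 with miR-199a-5p (adjusted p = 0.00101) and was at 0.06 ± 0.10 with miR-424-3p. Its relative MAP3K6 was at 0.14 ± 0.11 with each, and passed with neither.

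MAP3K3, or MEKK3, which acts in the ERK5 branch, read 9.39, 9.4 and 9.06 in the miR-199a-5p inputs and 8.84, 9.12 and 8.83 in the pull-downs. 1 pull-down array lay above the lowest input, and the fall was 0.35 ± 0.11 (adjusted p = 0.0155 in limma). This fall did not pass without input replicate 1 or 2 or pull-down replicate 1 or 3. The values were then -0.30 to -0.29, with adjusted p from 0.0521 to 0.0725. The dimmer MAP3K3 probe was not called with miR-199a-5p (-0.18, adjusted p = 0.18). MAP3K20, the ribosome stress kinase ZAK, read 9.31, 9.54 and 9.49 in the miR-424-3p inputs and 8.9, 9.24 and 9.28 in the pull-downs. Its pull-downs lay just below its inputs, with a fall of 0.30 ± 0.12 (adjusted p = 0.039) that was -0.25, -0.28 and -0.18 without input replicate 2, input replicate 3 and pull-down replicate 1 (adjusted p = 0.125, 0.0993 and 0.191). MAP3K7, or TAK1, which relays cytokine signals, fell by 0.29 ± 0.10 with miR-424-3p (adjusted p = 0.0303), a call lost without input replicate 2 or 3 or pull-down replicate 1 or 2 of that microRNA (-0.27 to -0.24, adjusted p from 0.0796 to 0.105). MAP3K4, MAP3K10, MAP3K14 and MAP3K21 passed with neither microRNA.

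Of the 5 MAP2K genes, MAP2K4 was the only one higher in both pull-downs. MAP2K1 encodes MEK1, the direct activator of ERK, and gave the largest fall of any member with miR-424-3p. Its inputs read 10.97, 11.24 and 11.13 and its pull-downs 10.39, 10.45 and 10.36, a fall of 0.71 ± 0.09 (adjusted p = 1.74e-05 in limma). With miR-199a-5p the inputs read 10.97, 11.09 and 11.18 and the pull-downs 10.99, 11.05 and 10.92, which overlapped, at -0.10 ± 0.09. MAP2K2, encoding MEK2, passed with neither, at -0.32 ± 0.19 and 0.36 ± 0.19, and its miR-424-3p inputs were widely spread at 12.3, 11.63 and 11.26. Without input replicate 1 of miR-424-3p its values were -0.32 (adjusted p = 0.0425) and 0.64 (adjusted p = 0.00155). MAP2K5, the activator of ERK5, rose by 0.44 ± 0.10 with miR-199a-5p (adjusted p = 0.00203) and was at -0.07 ± 0.10 with miR-424-3p. Its dimmer probe gave 0.04 with miR-199a-5p, and the mean of both probes, 0.24, did not pass (adjusted p = 0.057). MAP2K3, which acts on p38, passed with neither.

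The 8 MAPK genes had median enrichments of 0.15 and 0.02, beside 0.06 and 0.03 for all genes. MAPK8, encoding JNK1, moved opposite to MAPK9 with miR-199a-5p: its inputs read 8.57, 8.85 and 8.71 and its pull-downs 9.17, 9.41 and 9.64, a rise of 0.69 ± 0.13 (adjusted p = 0.000465 in limma). Its miR-424-3p arrays overlapped, with 8.92, 9.31 and 9.14 in the inputs and 9.2, 9.13 and 9.3 in the pull-downs. The MAPK8 probe is annotated to a cDNA clone rather than to a RefSeq transcript, so which transcripts it measures is not known here.

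MAPK7, encoding ERK5, read 9.96, 9.62 and 9.7 in the miR-424-3p inputs and 10.74, 10.83 and 10.71 in the pull-downs, a rise of 1.00 ± 0.12 (2.00-fold, adjusted p = 7.33e-06 in limma). With miR-199a-5p the inputs read 9.85, 9.74 and 9.45 and the pull-downs 9.89, 10.11 and 9.85, at or just above the inputs, at 0.27 ± 0.12 (adjusted p = 0.0714). The dimmer MAPK7 probe was not called with miR-424-3p (0.04) and was called lower with miR-199a-5p (-0.65). MAPK6, the atypical kinase ERK3, went the other way with miR-424-3p, from 10.34, 10.5 and 10.45 in the inputs to 9.77, 9.97 and 10.03 in the pull-downs. It fell by 0.51 ± 0.14 (adjusted p = 0.00592), while its miR-199a-5p arrays overlapped, with 9.98, 10.45 and 10.58 in the inputs and 10.62, 10.71 and 10.4 in the pull-downs. MAPK3, encoding ERK1, fell by 0.28 ± 0.09 with miR-424-3p (adjusted p = 0.0176). The fall was 0.26 without input replicate 2 or 3 of that microRNA (adjusted p = 0.055 and 0.0541). Its dimmer probe was not called there (-0.17, adjusted p = 0.221), nor was the mean of both probes (-0.22, adjusted p = 0.0597). The p38 genes MAPK11, MAPK12 and MAPK13 passed with neither, with MAPK13 nearest to a call at 0.36 ± 0.15 for miR-424-3p (adjusted p = 0.053).

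Whether the 2 microRNAs captured these RNAs to different extents was asked by testing the difference of the enrichments, miR-199a-5p minus miR-424-3p, in the same limma model. It was higher for 11 members (22.9%, beside 20.9% of all genes) and lower for 4 (8.33%, beside 18.1%), with a median of 0.02 beside 0.04. The members that leaned to miR-199a-5p were led by MAP4K5 at 0.96 ± 0.22 (adjusted p = 0.00447) and STK25 at 0.83 ± 0.15 (adjusted p = 0.000777), followed by MAPK6 at 0.75 ± 0.20 and MAP2K1 at 0.61 ± 0.13. Both fell with miR-424-3p, and their values with miR-199a-5p were 0.24 and -0.10. MAPK8 at 0.61 ± 0.18, STK38L at 0.56 ± 0.14, MAP2K5 at 0.52 ± 0.14 and MAP3K7 at 0.51 ± 0.15 also passed (adjusted p between 0.00763 and 0.017). By the mean of both probes the difference was 0.37 for MAP2K5 (adjusted p = 0.0514) and 0.14 for MAP3K7 (adjusted p = 0.398), neither of which passed. The differences of MAP3K1 (0.62 ± 0.23, adjusted p = 0.0452), MAP3K5 (0.45 ± 0.15, adjusted p = 0.027) and MAP3K4 (0.37 ± 0.12, adjusted p = 0.0206) lost their call without single arrays.

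For MAP3K1 the difference was between 0.45 and 0.67, with adjusted p from 0.0561 to 0.109, without any 1 of 8 arrays, namely replicate 1 or 2 of the miR-199a-5p inputs or pull-downs, input replicate 2 or 3, or pull-down replicate 1 or 2 of miR-424-3p. For MAP3K5 it was between 0.35 and 0.44, with adjusted p from 0.0508 to 0.0629, without input or pull-down replicate 1 of either microRNA or pull-down replicate 2 of miR-424-3p. For MAP3K4 it was 0.33 (adjusted p = 0.056) without input replicate 3 of miR-424-3p. The scaling of the arrays also removed calls. The MAP3K1 difference was 0.58 with median scaling (adjusted p = 0.0638 in limma) and 0.55 with cyclic loess (adjusted p = 0.0769). With cyclic loess that of MAP3K4 was 0.31 (adjusted p = 0.0501). The 4 members that leaned to miR-424-3p kept their call under every alternative run: STK39 at -1.19 ± 0.14 (adjusted p = 1.88e-05), MAPK9 at -1.19 ± 0.16 (adjusted p = 6.56e-05), MAP4K4 at -0.87 ± 0.17 (adjusted p = 0.00123) and MAPK7 at -0.73 ± 0.17 (adjusted p = 0.00374). Within this group STK39 and MAPK7 rose with miR-424-3p and did not pass with miR-199a-5p. MAPK9 and MAP4K4 carried opposite calls by their brighter probes only. The difference of MAP2K2, -0.68 ± 0.27, did not pass (adjusted p = 0.065) but was called lower under 7 alternatives, at -1.01 to -0.68 with adjusted p from 0.00127 to 0.0493, among them the fit without input replicate 1 of miR-424-3p (-0.97).

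**Figure D3:**
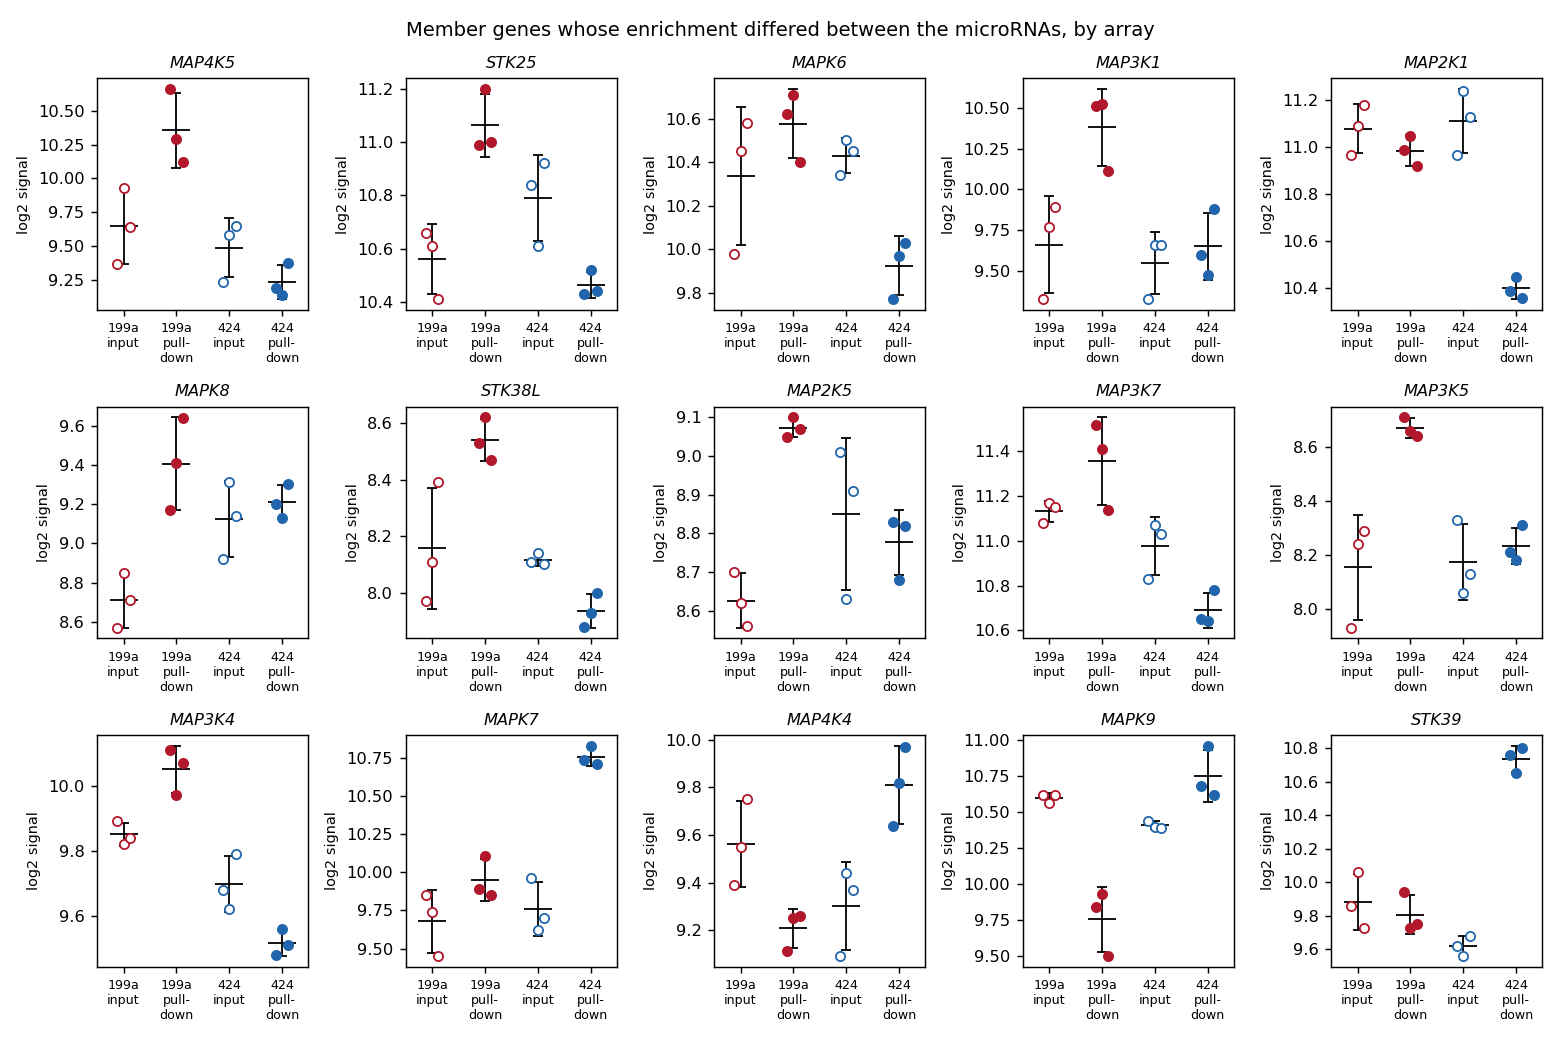
Log2 signal by array for the 15 members whose enrichment differed between the microRNAs, 1 panel per gene, with open points for inputs, filled points for pull-downs, and lines for the group mean and SD (n = 3). The first 11 panels lean to miR-199a-5p and the last 4 to miR-424-3p; in the STK39 panel the miR-424-3p pull-downs read 10.65 to 10.8 and every other array 9.56 to 10.06.

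The 14 members with 2 probes gave a measure of how far a gene's value rests on the probe. The dimmer probe had the lower enrichment in 11 of 14 genes with each microRNA, by a median of -0.35 (miR-199a-5p) and -0.28 (miR-424-3p), beside 64.9% and 62.4% of all 1954 genes with 2 probes. Both probes gave the same call in 4 of 14 genes with miR-199a-5p, in 8 with miR-424-3p and in 11 for the difference. MAP2K4 was called higher by both probes in both pull-downs (0.45 and 0.43, then 0.75 and 0.64). MAPK9, MAP4K4 and MAPK7 kept the direction of their difference, with -1.19 and -0.89, -0.87 and -0.71, and -0.73 and -0.69 for the brighter and dimmer probe. The opposite calls of MAPK9 and MAP4K4 in the 2 pull-downs rested on the brighter probe. The dimmer MAPK9 probe was called with miR-424-3p (0.53) but not with miR-199a-5p (-0.36, adjusted p = 0.0602 in limma). The dimmer MAP4K4 probe was called with miR-199a-5p (-0.48) but not with miR-424-3p (0.23, adjusted p = 0.0965).

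MAP4K5 was the one gene with opposite calls, 0.71 with the brighter probe and -0.44 with the dimmer probe for miR-199a-5p, and the mean of both was 0.13 (adjusted p = 0.308 in limma). The dimmer probe read 8.79, 8.22 and 8.74 in the inputs and 8.17, 8.17 and 8.09 in the pull-downs, below every input. MAP3K7 differed as widely, with 0.23 and -0.91 for miR-199a-5p, and its brighter and dimmer probes are annotated to different transcripts, as are those of MAP4K5. By the mean of both probes MAP3K7 was lower with miR-199a-5p (-0.34, adjusted p = 0.00583) and its difference was 0.14 (adjusted p = 0.398). MAPK7 had 0.27 and -0.65 for miR-199a-5p, then 1.00 and 0.04 for miR-424-3p, with both probes annotated to the same transcript. PAK4 had 0.21 and -0.59, then 0.20 and -0.36, with probes annotated to different transcripts. STK40 had 0.85 and 0.20, then 0.64 and 0.04, again with the same transcript for both. The dimmer STK40 probe lay near the floor, at a mean of 8.03. Besides PAK6-AS1, the dimmer probes of MAP3K20, MAP3K7, MAP4K5 and PAK4 were called lower in both pull-downs. They gave -0.29, -0.91, -0.44 and -0.59 with miR-199a-5p, and -0.45, -0.68, -0.54 and -0.36 with miR-424-3p. By the mean of both probes MAP3K20 was also lower with miR-199a-5p (-0.27, adjusted p = 0.0143 in limma).

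**Figure D4:**
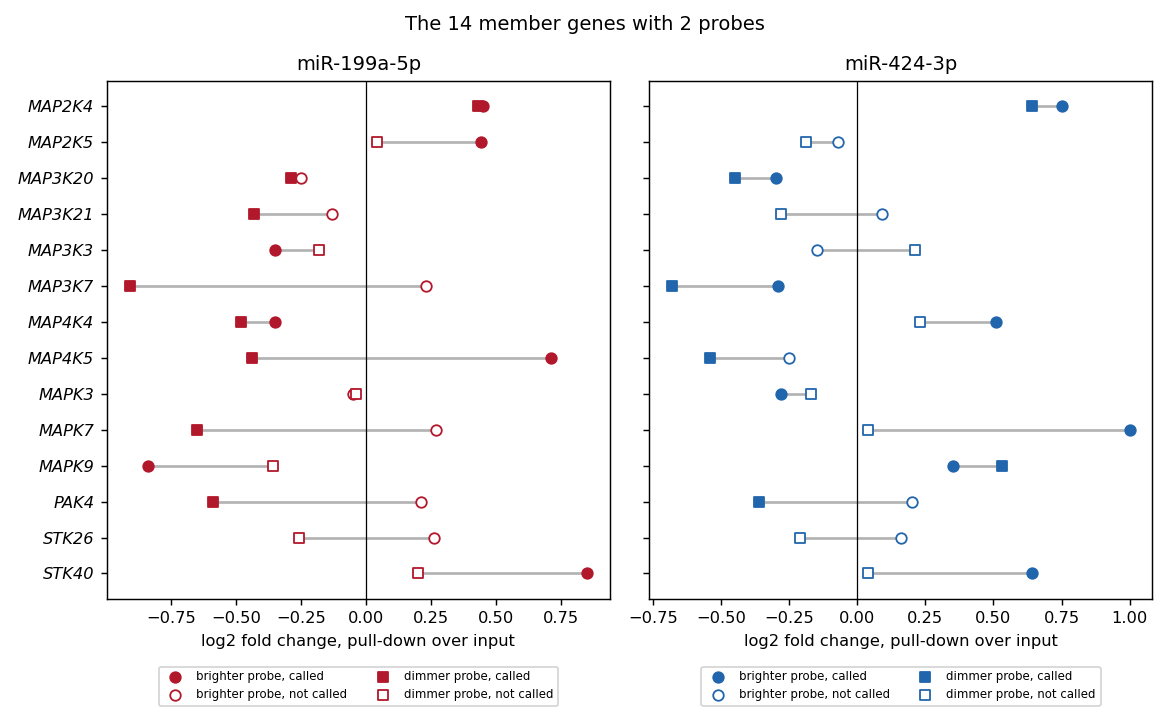
Log2 fold change of pull-down over input for both probes of the 14 members with 2 probes, miR-199a-5p in the left panel and miR-424-3p in the right. Circles are the brighter and squares the dimmer probe, filled symbols passed the limma threshold, and grey lines join the probes of a gene; the longest lines belong to MAP4K5 (0.71 and -0.44) and MAP3K7 (0.23 and -0.91) with miR-199a-5p.

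The inputs were compared with each other to ask whether the members' levels in the cells differed between the 2 duplexes. In limma's two-sided test 0 of 48 members were called higher and 0 lower, beside 0.0104% of all genes in each direction. The smallest adjusted p was 0.439, for MAPK8, and 8 members had an unadjusted p under 0.05, beside 801 of 9647 genes (8.3%). An array reads a whole culture, relative to its other probes, so fewer cells that hold an RNA and less of it per cell cannot be told apart. The largest input differences, miR-199a-5p minus miR-424-3p, were -0.52 ± 0.19 for MAP2K2, -0.41 ± 0.13 for MAPK8 and 0.35 ± 0.13 for STK35. Such values enter the difference of the enrichments: MAPK8 read 9.17 to 9.64 in one set of pull-downs (miR-199a-5p) and 9.13 to 9.3 in the other, close to each other beside its difference of 0.61. STK39 and MAP4K4 also had unadjusted input values under that limit, 0.26 ± 0.10 and 0.26 ± 0.12, and their pull-down arrays did not overlap between the microRNAs. STK25 and MAP2K5 had input values of -0.23 ± 0.10 and -0.22 ± 0.10 beside their differences of 0.83 and 0.52.

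The genes around the cascades were taken from 7 pathway lists. Among MAPK-activated kinases, which carry the signal onward from ERK and p38, 10 of 11 were measured. With miR-199a-5p 6 were higher and 0 lower, beside 29.9% and 20.1% of all genes, and with miR-424-3p 7 and 0, beside 30.3% and 25.7%, with medians of 0.39 in both beside 0.06 and 0.03 for all genes. MAPKAPK3 rose by 1.09 ± 0.10 and 0.80 ± 0.10, MKNK2, a kinase of the translation factor eIF4E, by 0.71 ± 0.13 and 0.94 ± 0.13, and RPS6KA1 by 0.57 ± 0.10 and 0.80 ± 0.10. Adjusted p-values of these 6 enrichments in limma were between 3.32e-06 and 0.00056. Of the receptors, RAS and RAF genes, 12 of 22 were measured, with 6 higher and 1 lower (median 0.28) for miR-199a-5p and 3 and 1 (median 0.12) for miR-424-3p. The same shares and medians of all genes stand beside these counts. RRAS2, a RAS-related GTPase, fell in both pull-downs, by 1.16 ± 0.11 and 0.68 ± 0.11, while ARAF, a MAP3K-level kinase of the ERK branch, rose by 0.48 ± 0.11 and 0.88 ± 0.11.

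Scaffolds and adaptors moved both ways, 17 of 23 being measured, with 4 higher and 5 lower (median 0) for miR-199a-5p and 8 and 3 (median 0.20) for miR-424-3p. Of all genes, 29.9% were higher and 20.1% lower with miR-199a-5p, and 30.3% and 25.7% with miR-424-3p. MAPKAP1, a subunit of the mTORC2 complex, fell by 1.43 ± 0.17 and 0.51 ± 0.17, IQGAP1, a scaffold of the ERK branch, rose by 0.84 ± 0.11 and 0.55 ± 0.11, and LAMTOR3, a scaffold of MEK1, fell by 0.62 ± 0.19 with miR-199a-5p and rose by 0.71 ± 0.19 with miR-424-3p. LAMTOR3 was named after its values were seen. The transcription factors at the end of the cascades had 17 of 23 measured, with 4 higher and 3 lower (median -0.07) for miR-199a-5p and 8 and 2 (median 0.29) for miR-424-3p. The difference was lower, toward miR-424-3p, for 7 of these 17 and higher for 0, beside 18.1% and 20.9% of all genes. MYC, with the largest change of this list, fell by 0.58 ± 0.13 with miR-199a-5p and rose by 1.66 ± 0.13 with miR-424-3p. JUN rose with both, by 0.69 ± 0.14 and 1.65 ± 0.14, as did SRF, by 0.43 ± 0.15 and 1.25 ± 0.15.

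The dual-specificity phosphatases that switch off MAP kinases had 8 of 11 measured, with 1 higher and 1 lower (median -0.03) for miR-199a-5p and 2 and 1 (median 0.01) for miR-424-3p. For this list and those that follow, the shares of all genes were 29.9% and 20.1% with miR-199a-5p and 30.3% and 25.7% with miR-424-3p. DUSP16 rose by 0.90 ± 0.10 with miR-424-3p and was at -0.10 ± 0.10 with miR-199a-5p. In the Hippo pathway below STK3 and STK4, 13 of 20 were measured, and 4 were higher and 1 lower with each microRNA, at medians of 0.09 and 0.13. YAP1, the coactivator that this pathway restrains, rose by 0.52 ± 0.12 and 0.55 ± 0.12, and SAV1, the partner of STK3 and STK4, fell by 0.62 ± 0.17 with miR-199a-5p and was at 0.13 ± 0.17 with miR-424-3p. Of the LKB1 and STRIPAK partners 15 of 19 were measured, with 5 higher and 2 lower (median 0.20), then 4 and 2 (median 0.08), and STRADA, the activator of LKB1, rose by 0.77 ± 0.13 with miR-424-3p.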

How the data were processed

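The values of the 12 Illumina HT-12 arrays are log2 signals that the authors normalized with lumi before they were deposited, by background adjustment, a variance-stabilizing transformation and robust spline normalization. The submitters' processing notes give lumi 2.2.1. This transformation compresses differences at low signal. A second deposited table before normalization had 24 columns of per-sample values whose names match no label, and these were not used. Groups came from the sample titles and characteristics. A single gene symbol was annotated for 12432 of the probes, several for 2 and none for 2895, and 48 of 48 member symbols were found in RefSeq GRCh38.p14 with the same symbol.

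The 4 groups were fitted to all arrays with limma 3.58.1 (R 4.3.3; lmFit, eBayes; 8 residual degrees of freedom), one-sided for pull-downs and their difference and two-sided for inputs, with Benjamini-Hochberg adjustment over all probes and a threshold of 0.05. A gene was taken at its brightest probe. The script was tested on simulated data. Pull-downs were set against inputs because the mock-transfected cells of the study's methods are not analysed here. The name miR-199a-5p follows the labels, although one supplementary legend has miR-199b-5p.

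The members, gene lists and naming rule were chosen with earlier results of these data known. By that rule, array values are given for the 8 largest rises and 6 largest falls called in each pull-down and the 5 largest differences each way, and up to 3 genes are named per pathway list. The result of 1 further list is not reported here. Alternatives were median scaling, cyclic loess, a mean of at least 9, weighting of arrays, replicate numbers as a block, a fold of at least 1.5, the mean of a gene's probes, only the arrays compared, two-sided tests and leaving out each array. Correction from raw signals and slide as a block could not be run, since columns were not tied to samples and no slide is named.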

Additional observations from a re-analysis of the deposited data

Results flagged for a closer look

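The enrichment of 15 members differed between the microRNAs by the limma test of the difference itself, 11 toward miR-199a-5p and 4 toward miR-424-3p, and for this they are listed again. The log2 differences, miR-199a-5p minus miR-424-3p, were 0.96 for MAP4K5, 0.83 for STK25, 0.75 for MAPK6, 0.62 for MAP3K1, 0.61 for MAP2K1 and 0.61 for MAPK8. They were 0.56 for STK38L, 0.52 for MAP2K5, 0.51 for MAP3K7, 0.45 for MAP3K5 and 0.37 for MAP3K4. Toward miR-424-3p they were -0.73 for MAPK7, -0.87 for MAP4K4, -1.19 for MAPK9 and -1.19 for STK39. The JNK genes MAPK8 and MAPK9 stood on opposite sides, as did the MAP4K genes MAP4K5 and MAP4K4. The MAP4K5, MAP3K7 and MAP2K5 differences were not called with their dimmer probes, at 0.10, -0.24 and 0.22, while those of MAPK9, MAP4K4 and MAPK7 were.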

How the results depend on the processing

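Requiring a fold of at least 1.5 left 8 of 15 higher and 1 of 5 lower members with miR-199a-5p. With miR-424-3p it left 8 of 12 higher and 1 of 8 lower, and in the difference 6 of 11 higher and 4 of 4 lower. Array weights gave 11 lower members with miR-199a-5p, 8 lower in the difference and 2 higher in the inputs (STK35 and STK39). Cyclic loess gave 7 lower in the difference, and probes with a mean of at least 9 gave 3 lower with miR-199a-5p, of 31 members. The fold limit lowers counts by its construction, and the filter on the mean leaves fewer members, although it raised the lower members in the difference from 4 to 5 (MAP2K2). For the other settings the cause was not tested. Leaving out 1 array gave 14 to 18 higher and 2 to 7 lower members with miR-199a-5p, 11 to 14 and 4 to 9 for miR-424-3p, 9 to 12 and 4 to 6 in the difference, and 0 in the inputs. No called value of a named member changed sign. Setting the fold limit aside, 12 of 15 higher and 2 of 5 lower calls with miR-199a-5p, 11 of 12 and 4 of 8 with miR-424-3p, and 6 of 11 and 4 of 4 in the difference held in every alternative run. Median scaling and cyclic loess moved the median of all genes by at most 0.033. Even so, the share of higher among all genes called in the difference went from 53.6% to 47.8% and 48.5%, respectively. Same-numbered pull-downs and inputs deviated together at r = 0.075, 0.021 and -0.1 for miR-199a-5p and 0.134, 0.06 and 0.258 for miR-424-3p, and same-numbered arrays of the 2 microRNAs at 0.514, 0.038 and 0.105 for inputs and 0.076, 0.221 and 0.002 for pull-downs. Not every pair was above 0.1, so the numbers were not taken to pair the arrays. The replicate block gained 4 calls and lost 0, and the higher members stayed at 15 for miR-199a-5p and 12 for the other. Correction from raw signals and slide as a block were not run. Dim members near the array's floor limit what falls can be seen.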
